A study of Mus musculus with 203 samples.

Results

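Toll-like receptors are the sensors with which macrophages detect microbial molecules, and the 10 mouse genes examined here were Tlr1, Tlr2, Tlr3, Tlr4, Tlr5, Tlr6, Tlr7, Tlr8, Tlr9 and Tlr13. They were found by gene symbol in the expression tables of both RNA-seq experiments of the series, where they are 10 of 25094 genes for RAW cells and 10 of 16478 genes for bone marrow-derived macrophages (BMDMs). The series asks how the corepressor subunit GPS2 and the histone demethylase KDM1A (also called LSD1) set the response of mouse macrophages to interleukin 4 (IL4), a cytokine that drives alternative macrophage activation. Values per library were used for RAW 264.7 cells, a macrophage-like line from BALB/c mice. RAW cells carried a lentiviral shRNA against GFP (shGFP, the control hairpin) or against Kdm1a (shKDM1A), and each line was harvested without IL4 (control) or after 6 h with 20 ng/ml of IL4. All 4 groups therefore carry a vector and had been selected with puromycin, and each hairpin is represented by 1 stable line, so an effect of the knockdown and a difference between the lines cannot be told apart. Each group had 4 libraries. The study's methods speak of biological replicates for its experiments in general, and the labels do not say how the 4 libraries of a group relate, so the p-values measure the spread between these libraries. The BMDM table, from WT mice and mice with a macrophage-specific Gps2 knockout, holds no values per library and gives no results here.

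Each receptor has a leucine-rich ectodomain that binds the ligand and a cytoplasmic TIR domain that recruits adaptors. TLR1, TLR2, TLR4, TLR5 and TLR6 act at the cell surface and sense lipopeptides, lipopolysaccharide and flagellin, whereas TLR3, TLR7, TLR8, TLR9 and TLR13 act in endosomes and sense nucleic acids. MyD88 serves every one of these receptors except TLR3, which signals through TRIF, an adaptor shared with TLR4. The pathway ends in NF-kB, AP-1 and interferon regulatory factors, which switch on cytokine and interferon genes.

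The targeted gene was checked first. Kdm1a had a normalised log2 value of 11.18 ± 0.04 (SD, n = 4) in shGFP control cells and 10.30 ± 0.05 in shKDM1A control cells, and with IL4 the values were 11.10 ± 0.03 and 10.32 ± 0.03. The knockdown line's level was decreased by 45.8% without IL4 (log2 difference −0.88, SE 0.03, adjusted p = 5.62e-13 from limma) and decreased by 42.0% with IL4 (log2 difference −0.79, SE 0.03, adjusted p = 2.2e-12). The libraries held from 17554721 to 27782568 tags. Of 12 macrophage markers, 11 passed the filter on low values and 9 had a mean value of at least 8. Mertk did not pass, and Mrc1 and Aif1 lay lower, at 5.51 and 5.89 in shGFP control cells. None of 6 fibroblast and 10 lymphocyte markers passed the filter on low values, against 2 of 7 epithelial and endothelial and 1 of 6 neutrophil markers, and Epcam, Krt8, Cdh1 and Ly6g were among those listed at 0 in all 16 libraries. The 4 libraries of shKDM1A cells with IL4 fell into pairs: the median absolute log2 difference between libraries was 0.044 within the pair of replicates 1 and 3 and 0.039 within the pair of replicates 2 and 4, but 0.054 to 0.056 between the pairs, against 0.036 to 0.049 in the other groups. Receptor calls that were lost or gained without 1 of these pairs are given both ways.

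Of the 10 receptor genes, 9 were measured in every library, with log2 values from 6.26 for Tlr8 to 12.31 for Tlr2, and all 9 passed the filter (4 or more libraries with a value of 1 or higher, which 12905 genes had). Tlr5, the flagellin receptor on chromosome 1 (mm9, 184884919 to 184906175), was listed at 0 in all 16 libraries, as were 8488 genes of the table, and so were Tlr11 and Tlr12, the remaining mouse family members. The level of Tlr5 therefore gives no comparison. None of the 10 genes overlaps another gene of the table, so the counting of reads on both strands does not mix them with a neighbour listed there.

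Levels of different receptors were compared per kb of exon, as the log2 value minus log2 of the exon length in the table. In shGFP control cells Tlr2 stood highest at 10.78 ± 0.03 (SD, n = 4), above 92.2% of the genes tested. Tlr7 followed at 9.51 ± 0.06 and Tlr13 at 8.51 ± 0.06. Tlr4 was in the middle of the range at 7.70 ± 0.11, above 51.3% of the genes. Below it came the TLR2 partners Tlr1 (6.77 ± 0.05) and Tlr6 (6.08 ± 0.05), then Tlr9 (5.77 ± 0.09), Tlr3 (5.33 ± 0.08) and Tlr8 (4.02 ± 0.08). In this group no 2 neighbours in the order had overlapping libraries. The order of Tlr13 and Tlr4 depends on the length used: the table gives Tlr4 an exon length of 7886 bases, and with the longest GENCODE transcript (4077 bases for Tlr4 and 4060 for Tlr13) Tlr4 has rank 3 and Tlr13 rank 4. Ranks 1 to 5, 8 and 9 were held by the same receptors in all 4 groups, while Tlr6 and Tlr9 changed places in shGFP cells with IL4 and overlapped in shKDM1A cells with IL4. With IL4, Tlr9 reached 6.18 ± 0.11 in shGFP cells and lay 0.18 above Tlr6 with overlapping libraries. In shKDM1A cells Tlr9 and Tlr3 had overlapping libraries both without IL4, where they differed by 0.05, and with IL4, where they differed by 0.23.

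**Figure D1:**
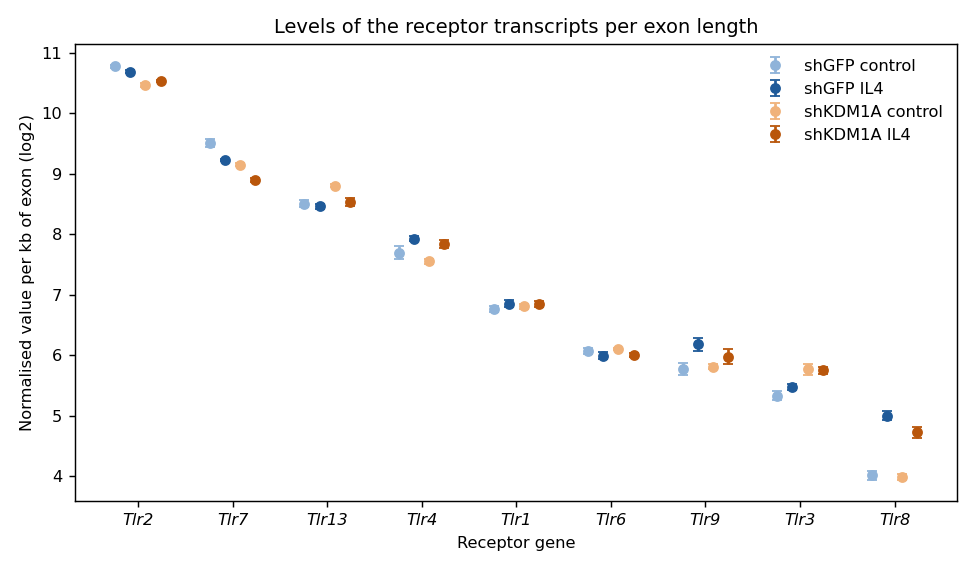
Mean normalised log2 value per kb of exon (y axis) of the 9 measured receptor genes (x axis) in the 4 groups of RAW cells, with bars of 1 SD over 4 libraries. Tlr2 is highest in every group, and Tlr8 is lowest in every group, at 4.02 in shGFP control cells and 5.00 in shGFP cells with IL4.

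Promoter windows in RefSeq (build GRCm38.p6, 250 bases before to 50 bases after an annotated start) were listed for 8 of the 10 genes, in 10 windows. Each of the 10 windows matched the mm9 genome exactly once, and in 8 of them the annotated start was the start of the gene given in the table. Both strands were searched for 6 motifs: STAT6 (TTC, any 4 bases, GAA), the factor that IL4 activates, PU.1 (GAGGAAGT), AP-1 (TGANTCA), NF-kB (GGGA, any 4 bases, CC), ISRE (GAAA, any 2 bases, GAAA) and C/EBP (TTGCNNAA). Tlr4 and Tlr7 were not among the 8 genes. Of those listed, the windows of Tlr2, Tlr3, Tlr8 and Tlr13 are shown, since these genes had called differences without overlap in 2 or more comparisons, from 5′ to 3′ on the gene's strand, with every motif match in capitals.
Tlr2: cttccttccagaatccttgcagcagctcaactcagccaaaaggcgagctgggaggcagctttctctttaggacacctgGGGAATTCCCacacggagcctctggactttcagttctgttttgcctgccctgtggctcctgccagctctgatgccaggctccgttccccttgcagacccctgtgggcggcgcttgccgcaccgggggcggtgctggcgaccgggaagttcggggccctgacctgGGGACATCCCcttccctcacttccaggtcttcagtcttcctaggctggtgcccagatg
Tlr3: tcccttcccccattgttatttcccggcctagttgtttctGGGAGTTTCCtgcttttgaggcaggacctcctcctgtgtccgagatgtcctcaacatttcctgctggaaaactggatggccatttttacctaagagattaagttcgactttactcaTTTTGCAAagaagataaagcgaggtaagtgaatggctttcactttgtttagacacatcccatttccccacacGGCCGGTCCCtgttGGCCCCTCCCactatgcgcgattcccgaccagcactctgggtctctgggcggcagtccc
Tlr8: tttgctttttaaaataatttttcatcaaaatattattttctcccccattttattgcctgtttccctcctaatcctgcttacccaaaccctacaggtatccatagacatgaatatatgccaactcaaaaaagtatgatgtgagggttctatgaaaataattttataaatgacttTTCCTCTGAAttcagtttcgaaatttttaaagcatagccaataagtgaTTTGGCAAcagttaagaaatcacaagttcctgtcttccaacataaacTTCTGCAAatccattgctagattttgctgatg
Tlr13: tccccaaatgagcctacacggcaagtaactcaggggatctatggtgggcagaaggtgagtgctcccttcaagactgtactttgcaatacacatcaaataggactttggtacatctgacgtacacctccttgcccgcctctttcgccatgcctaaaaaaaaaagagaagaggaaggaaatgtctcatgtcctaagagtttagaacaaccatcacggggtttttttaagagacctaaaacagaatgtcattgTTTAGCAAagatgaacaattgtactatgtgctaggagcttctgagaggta
In mm9 these windows are chr3:83645481-83645780 (minus strand), chr8:46495685-46495984 (minus strand), chrX:163702212-163702511 (minus strand) and chrX:103338364-103338663 (plus strand). The capitals mark 2 NF-kB matches for Tlr2, 3 NF-kB matches and 1 C/EBP match for Tlr3, 1 STAT6 match and 2 C/EBP matches for Tlr8, and 1 C/EBP match for Tlr13. The STAT6 match of Tlr8 begins 77 bases before the start and was the only one among the 10 receptor windows, while 6.95% of 32851 promoter windows of all genes hold one. The other shares over all windows were 20.7% for NF-kB, 10.8% for C/EBP, 7.81% for AP-1, 3.44% for ISRE and 3.2% for PU.1. In the receptor windows no match overlapped one of another motif. These matches are descriptions of the letters, and no binding was measured here.

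**Figure D2:**
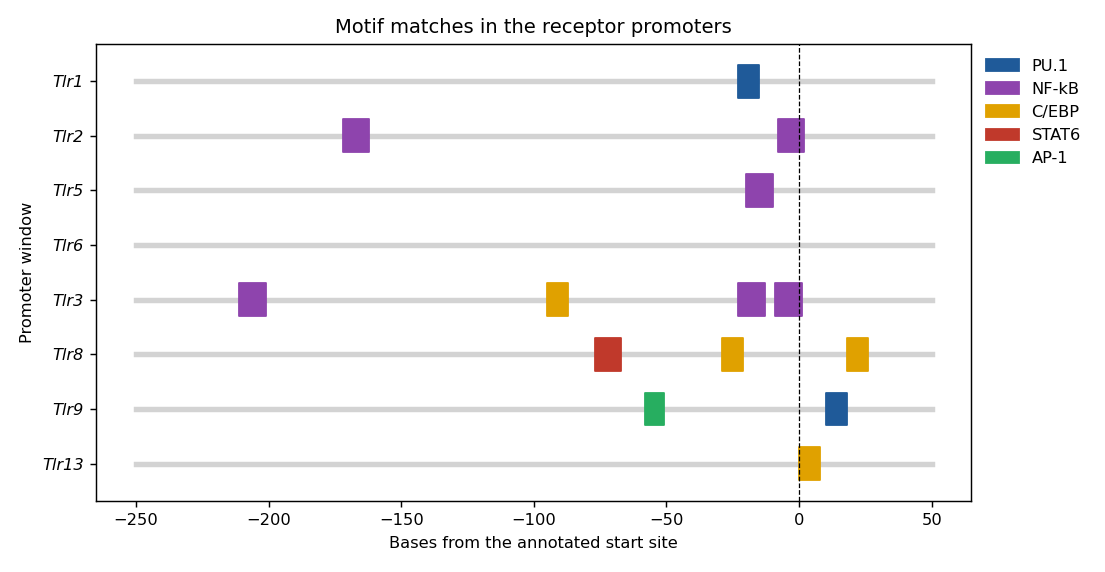
Positions of motif matches (coloured blocks) in bases from the annotated start (x axis, dashed line at the start) in the window of 8 receptor genes (y axis) whose annotated start is the start used in the table. Tlr8 holds the STAT6 match and Tlr9 the AP-1 match, and no match is drawn for Tlr6.

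Without IL4, shKDM1A cells had more transcript of Tlr3 and Tlr13, receptors for double-stranded RNA and for a bacterial ribosomal RNA sequence, than shGFP cells and less Tlr7, Tlr2 and Tlr4 transcript. These 5 of the 9 measured genes passed the test (adjusted p under 0.05 from limma over 12905 genes), while 38.2% of all genes did (19.7% higher and 18.4% lower). Which direction holds more of all called genes depends on the scaling, since 51.7% of them were higher as deposited and 43.2% after quantile normalization. In 4 of the 9 the libraries of the 2 groups did not overlap, against 37.4% of all genes. Of these 4, 2 were higher (19.6% of all genes) and 2 lower (17.8%). The median log2 difference of the 9 was 0.03, beside −0.0027 for all genes.

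Tlr3 (chromosome 8, 46481019 to 46495734) had log2 values of 7.40, 7.45, 7.54 and 7.36 in the shGFP control libraries and 7.93, 7.75, 7.94 and 7.86 in the shKDM1A control libraries. Every shKDM1A library lay above every shGFP library. The log2 difference of 0.43 (SE 0.05, adjusted p = 1.23e-06) is a level 34.9% higher, the largest change of a receptor gene in this comparison. With IL4 the shGFP libraries read 7.61, 7.63, 7.56 and 7.52 and the shKDM1A libraries 7.83, 7.90, 7.79 and 7.90, again without overlap, with a log2 difference of 0.28 (SE 0.05, adjusted p = 0.000143).

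Tlr7 (chromosome X, 163742858 to 163768503), the endosomal receptor for single-stranded RNA, went the other way. Its values were 11.45, 11.52, 11.55 and 11.42 in shGFP control cells and 11.15, 11.10, 11.13 and 11.13 in shKDM1A control cells. With IL4 they were 11.20, 11.23, 11.19 and 11.20 in shGFP cells and 10.85, 10.85, 10.89 and 10.92 in shKDM1A cells. The 4 groups did not overlap and descended in steps, with shGFP control cells highest and shKDM1A cells with IL4 lowest. The log2 difference of Tlr7 between shKDM1A and shGFP cells was −0.36 without IL4 (SE 0.03, adjusted p = 1.27e-08) and −0.33 with IL4 (SE 0.03, adjusted p = 3.96e-08). IL4 decreased it by 0.28 in shGFP cells (adjusted p = 4.93e-07) and by 0.25 in shKDM1A cells (adjusted p = 2.09e-06). The difference between the 2 IL4 responses was 0.03 (SE 0.04, adjusted p = 0.681).

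Tlr2 (chromosome 3, 83640194 to 83645530), the lipopeptide receptor that pairs with TLR1 or TLR6, was the most abundant receptor transcript per kb. The shGFP control libraries read 12.31, 12.31, 12.28 and 12.26, and the shKDM1A control libraries 12.02, 11.97, 11.98 and 11.95. With IL4 the values were 12.16, 12.22, 12.20 and 12.22 in shGFP cells and 12.08, 12.03, 12.04 and 12.04 in shKDM1A cells. All shKDM1A libraries lay below all shGFP libraries. The log2 difference was −0.31 without IL4 (SE 0.02, adjusted p = 8.32e-09) and −0.15 with IL4 (SE 0.02, adjusted p = 2.72e-05). Tlr1 and Tlr6, whose products form heterodimers with TLR2, lie 19.5 kb apart on chromosome 5 and did not pass in either comparison: their log2 differences were 0.04 and 0.03 without IL4 and −0.01 and 0.01 with IL4, with SEs of 0.03.

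Tlr13 (chromosome X, 103338614 to 103355832) read 10.46, 10.56, 10.57 and 10.45 in shGFP control cells and 10.80, 10.79, 10.83 and 10.81 in shKDM1A control cells. The 4 knockdown libraries lay together and above the others, with a log2 difference of 0.30 (SE 0.03, adjusted p = 3.82e-06). With IL4 the values were 10.49, 10.40, 10.48 and 10.49 against 10.49, 10.58, 10.48 and 10.62. These overlapped, and the log2 difference of 0.08 (SE 0.03) had an adjusted p of 0.0882. Leaving out shKDM1A IL4 replicate 3 gave 0.10 (adjusted p = 0.0414), and leaving out replicates 1 and 3 gave 0.14 (adjusted p = 0.0112). Median centring gave 0.09 (adjusted p = 0.0497). These were the 3 of 26 alternatives that called it, and the log2 difference ranged from 0.02 to 0.14 over all of them.

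Tlr4 (chromosome 4, 66488585 to 66507615), the lipopolysaccharide receptor, was lower in shKDM1A than in shGFP control cells, with a log2 difference of −0.14 (SE 0.05, adjusted p = 0.0213), but its groups overlapped. The shGFP control libraries were the most scattered, at 10.70, 10.70, 10.79 and 10.53, against 10.57, 10.53, 10.48 and 10.55 in shKDM1A control cells. The call was lost without shGFP control replicate 1 (−0.14, adjusted p = 0.0518), without shGFP control replicate 3 (−0.11, adjusted p = 0.0783) or without shKDM1A control replicate 3 (−0.13, adjusted p = 0.065). With IL4 the difference was −0.09 (adjusted p = 0.154).

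**Figure D3:**
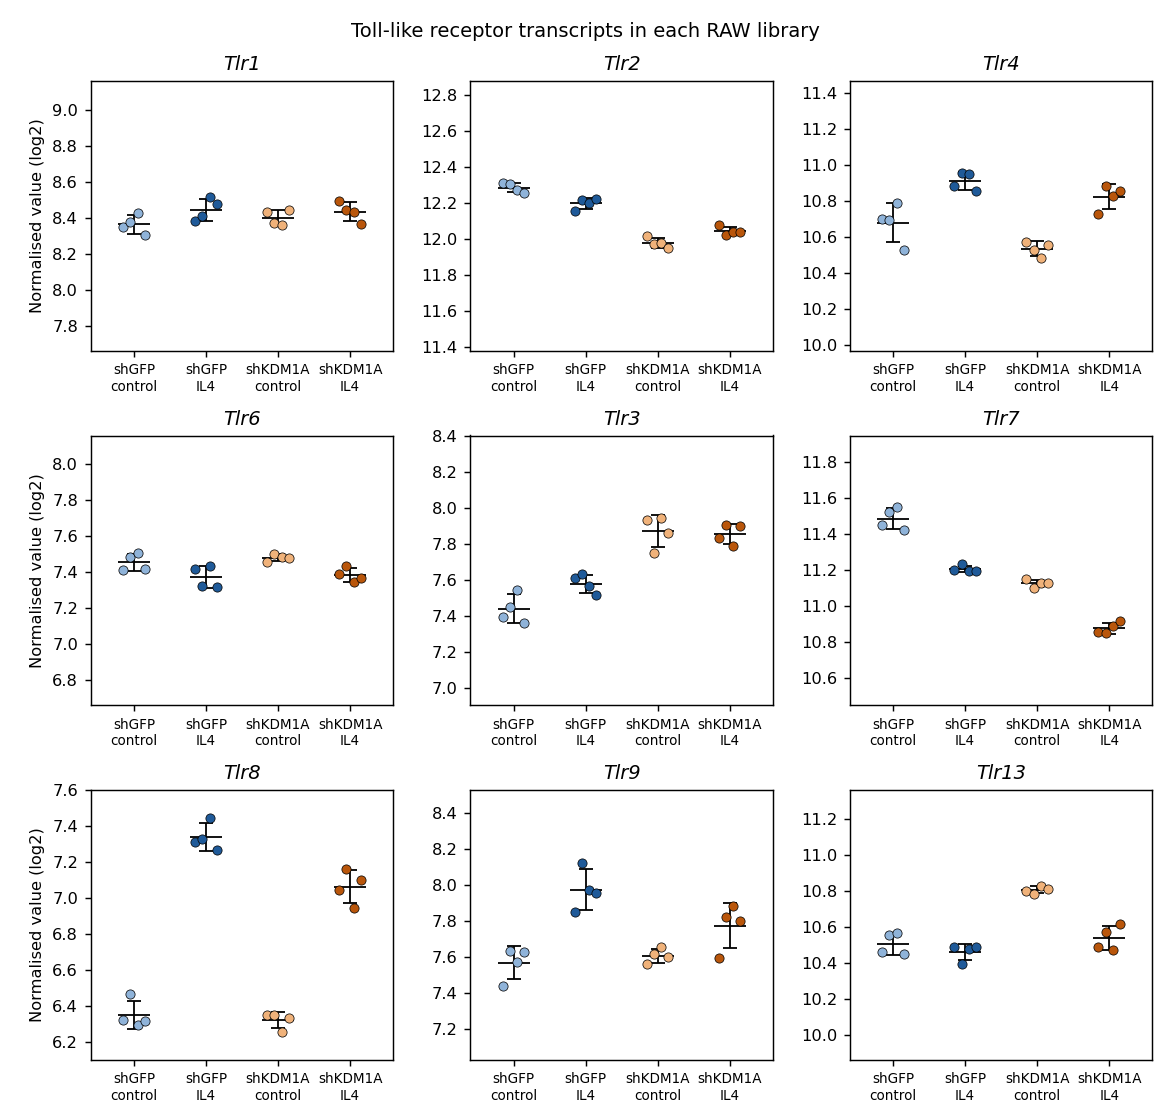
Normalised log2 value (y axis, 1.5 log2 units in each panel) of 9 receptor genes in 16 RAW libraries (points), by group, with the mean (horizontal line) and SD. Tlr7 descends over the 4 groups without overlap, Tlr8 rises with IL4 in both lines, and Tlr13 is highest in shKDM1A control cells at 10.81.

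With IL4, 5 of 9 receptor genes passed between the lines, 1 higher in shKDM1A cells (Tlr3) and 4 lower (Tlr7, Tlr2, Tlr8 and Tlr9), against 40.7% of all genes (20.9% higher and 19.8% lower). In 4 of the 9 the libraries did not overlap, against 36.4% of all genes, 1 of them higher (19.0%) and 3 lower (17.4%). The median log2 difference of the 9 was −0.09, beside −0.0024 over all genes. Tlr8 and Tlr9 had log2 differences of −0.03 (adjusted p = 0.709) and 0.04 (adjusted p = 0.682) without IL4, and of −0.28 (SE 0.05, adjusted p = 0.000241) and −0.20 (SE 0.06, adjusted p = 0.0167) with it. Tlr8 libraries did not overlap between the lines with IL4, whereas those of Tlr9 did. The Tlr9 call was lost without shGFP IL4 replicate 2 (−0.15, adjusted p = 0.0628), without shKDM1A IL4 replicate 1 (−0.14, adjusted p = 0.0594) or without shKDM1A IL4 replicates 1 and 3 (−0.17, adjusted p = 0.0597). These 2 comparisons share no libraries, and the test of their difference is the interaction given further on.

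IL4 itself, in shGFP cells, raised Tlr8, Tlr9, Tlr4 and Tlr3 and lowered Tlr7 and Tlr2. The 6 of 9 genes that passed compare with 26.9% of all genes (13.1% higher and 13.7% lower). In 5 of the 9 the groups did not overlap, against 28.3% of all genes, 3 of them higher (13.9%) and 2 lower (14.4%). The median log2 difference was 0.08, beside −0.0005 over all genes. These IL4 comparisons share their control and IL4 libraries with the knockdown comparisons above.

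Tlr8 (chromosome X, 163679055 to 163702261), the least abundant receptor transcript per kb, had the largest response. It read 6.32, 6.47, 6.30 and 6.32 in shGFP control cells and 7.31, 7.33, 7.45 and 7.27 with IL4. Every IL4 library lay far above every control library. The log2 difference was 0.99 (SE 0.05, adjusted p = 1.52e-10), a level 1.98-fold higher, and since the deposited values appear moderated for low genes the true change may be larger. In shKDM1A cells the values went from 6.35, 6.35, 6.26 and 6.33 to 7.04, 7.16, 6.95 and 7.10, a log2 difference of 0.74 (SE 0.05, adjusted p = 6.08e-09) or 1.67-fold. Tlr7, the neighbour of Tlr8 with a gap of 40.6 kb on chromosome X, fell in the same libraries.

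Tlr9 (chromosome 9, 106124929 to 106129207), the receptor for unmethylated CpG DNA, read 7.44, 7.63, 7.57 and 7.63 in shGFP control cells and 7.85, 8.12, 7.97 and 7.95 with IL4. All IL4 libraries were above the controls, by 0.41 on average (log2, SE 0.06, adjusted p = 0.000106). In shKDM1A cells the libraries overlapped, at 7.56, 7.61, 7.65 and 7.60 without and 7.59, 7.82, 7.88 and 7.80 with IL4. The log2 difference there was 0.17 (SE 0.06, adjusted p = 0.056). It passed without shKDM1A IL4 replicate 1 (0.23, adjusted p = 0.00641), the lowest of the IL4 libraries, and without shKDM1A IL4 replicates 1 and 3 (0.20, adjusted p = 0.0334). It also passed when 1 of 3 shGFP libraries was left out, with the value unmoved at 0.17 (adjusted p = 0.0426 without control replicate 1, 0.0444 without IL4 replicate 1 and 0.0375 without IL4 replicate 2). Other scaling called it too: median centring gave 0.18 (adjusted p = 0.04) and quantile normalization 0.19 (adjusted p = 0.0375). In all, 10 of 26 alternatives called this response.

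Tlr4 rose with IL4 in both lines, by a log2 difference of 0.23 in shGFP cells (SE 0.05, adjusted p = 0.00127) and 0.29 in shKDM1A cells (SE 0.05, adjusted p = 0.000174). The IL4 libraries, 10.88, 10.95, 10.95 and 10.85 for shGFP and 10.73, 10.88, 10.83 and 10.85 for shKDM1A, lay above the controls of their own line. The Tlr3 response in shGFP cells was small, at 0.14 (SE 0.05, adjusted p = 0.0319), with overlapping groups. That call was lost when any of 6 libraries was left out, namely shGFP control replicate 1, 2 or 4 (0.13, 0.14 and 0.12, adjusted p = 0.087, 0.0523 and 0.102) or shGFP IL4 replicate 1, 2 or 3 (0.13, 0.12 and 0.15, adjusted p = 0.0772, 0.0915 and 0.0524). In shKDM1A cells Tlr3 differed by −0.01 (adjusted p = 0.882).

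In shKDM1A cells 6 of 9 receptor genes passed with IL4, against 27.1% of all genes (13.6% higher and 13.5% lower): Tlr8, Tlr4 and Tlr2 higher, and Tlr13, Tlr7 and Tlr6 lower. All 6 were without overlap, against 25.7% of all genes, the 3 higher ones beside 13.0% and the 3 lower ones beside 12.7%. The median log2 difference was 0.03, beside −0.0025 for all genes. Tlr13 decreased by 0.27 on the log2 scale (SE 0.03, adjusted p = 2.29e-05), and its IL4 libraries all lay below its controls. Tlr6 decreased by 0.10 (SE 0.03, adjusted p = 0.0293) and Tlr2 rose by 0.07 (SE 0.02, adjusted p = 0.0328), and although neither group pair overlapped, both calls were lost on leaving out any of 6 libraries. For Tlr6 these were shKDM1A control replicates 2, 3 and 4 and shKDM1A IL4 replicates 1, 3 and 4, with log2 differences of −0.09, −0.09, −0.10, −0.10, −0.08 and −0.09 and adjusted p of 0.0766, 0.0588, 0.058, 0.0512, 0.0861 and 0.0655. For Tlr2 the same 6 libraries gave 0.063, 0.066, 0.055, 0.055, 0.068 and 0.067 with adjusted p of 0.0742, 0.0626, 0.103, 0.0993, 0.0538 and 0.0502. Without shKDM1A IL4 replicates 1 and 3 the values were −0.08 for Tlr6 (adjusted p = 0.177) and 0.052 for Tlr2 (adjusted p = 0.196).

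Tlr1 was not called with IL4 in either line (0.08, adjusted p = 0.0955 in shGFP cells, and 0.03, adjusted p = 0.559 in shKDM1A cells), and in shGFP cells Tlr6 was not called either (−0.08, adjusted p = 0.0645). Both values in shGFP cells were close to the threshold. Without shGFP IL4 replicate 1, Tlr1 passed at 0.10 (adjusted p = 0.0492) and Tlr6 at −0.10 (adjusted p = 0.047), and without shGFP IL4 replicate 3 Tlr6 passed at −0.10 (adjusted p = 0.0271). After quantile normalization Tlr6 passed at −0.09 (adjusted p = 0.0437).

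**Figure D4:**
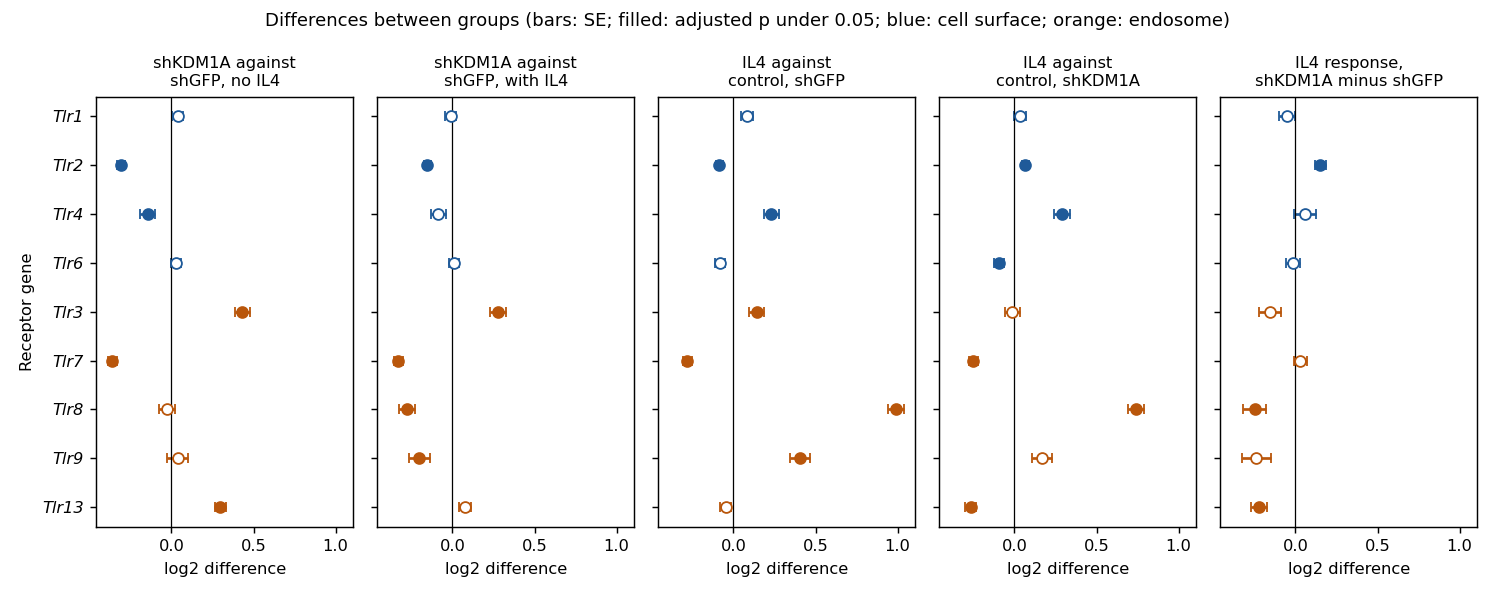
Log2 differences (x axis, bars of 1 SE) of 9 receptor genes (y axis) in the 5 comparisons, with filled points for an adjusted p under 0.05, in blue for cell-surface and in orange for endosomal receptors. The largest value is Tlr8 with IL4 in shGFP cells at 0.99, and Tlr2, Tlr8 and Tlr13 are filled in the panel of the difference between the IL4 responses.

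The difference between the IL4 responses of the 2 lines (shKDM1A minus shGFP) was tested for each gene. It passed for 3 of 9 receptor genes, against 6.13% of all genes (3.56% higher and 2.57% lower). The share of all genes rested on the pairs of shKDM1A IL4 libraries: without replicates 1 and 3 it was 2.7%, with 1 of 9 receptor genes called, and without replicates 2 and 4 it was 17.7%, with 3 of 9. Tlr2 had a difference of 0.15 (SE 0.03, adjusted p = 0.00805): it declined by 0.09 with IL4 in shGFP cells (adjusted p = 0.00675) and rose by 0.07 in shKDM1A cells. Tlr13 had a difference of −0.22 (SE 0.05, adjusted p = 0.0158), with −0.05 (adjusted p = 0.38) in shGFP cells and −0.27 in shKDM1A cells. Tlr8 had −0.25 (SE 0.07, adjusted p = 0.042), a smaller rise in shKDM1A cells.

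The Tlr2 result was called in 25 of 25 alternatives, and its adjusted p ranged from 0.00486 to 0.0455. Without shKDM1A IL4 replicates 1 and 3 Tlr13 no longer passed (−0.16, adjusted p = 0.0864). The Tlr8 call was the least stable: it was held in 11 of 25 alternatives (adjusted p from 0.00775 to 0.183) and lost without shKDM1A IL4 replicates 1 and 3 (−0.18, adjusted p = 0.183). It was also lost without any of 11 single libraries. These were shGFP control replicates 1, 3 and 4 (−0.24, −0.23 and −0.24, adjusted p = 0.0789, 0.0683 and 0.0839), shGFP IL4 replicates 1, 2 and 3 (−0.26, −0.25 and −0.21, adjusted p = 0.0566, 0.0677 and 0.0795), shKDM1A control replicates 1, 2 and 4 (−0.24, −0.24 and −0.25, adjusted p = 0.0665, 0.077 and 0.0728) and shKDM1A IL4 replicates 1 and 3 (−0.24 and −0.21, adjusted p = 0.075 and 0.0775). Tlr9 had a difference of similar size, −0.24, but a wider error (SE 0.09, adjusted p = 0.117). It was called in 1 of 25 alternatives, a fit with replicate number as a block (SE 0.05, adjusted p = 0.0241). The 4 measured surface receptors ranged from −0.05 (Tlr1) to 0.15 (Tlr2), and the 5 endosomal receptors from −0.25 (Tlr8) to 0.03 (Tlr7).

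For the receptor with the largest log2 difference in each of 3 comparisons, the 5 genes whose values over the 16 libraries were most alike were listed by Pearson r, as a description. For Tlr8, the largest with IL4 in shGFP cells, these were Myo1c (r = 0.99), Adgre1 (0.99), Pbxip1 (0.99), Rai14 (0.98) and Arhgap12 (0.98). Adgre1 encodes the macrophage surface protein F4/80, and its mean value went from 9.95 to 11.18 with IL4 in shGFP cells. For Tlr7, the largest in the knockdown with IL4, they were Tpd52 (0.99), Hpgds (0.98), Itga4 (0.98), Cd164 (0.98) and Dusp3 (0.98). For Tlr3, the largest in the knockdown without IL4, they were Mvb12b (0.96), Galnt7 (0.96), Alg9 (0.96), Crybg1 (0.96) and Vwa5a (0.96). The 16 libraries fall into 4 groups, so these r values mostly describe the order of the group means.

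The rest of the pathway was described with 6 lists. Among 12 measured chaperones, transporters and co-receptors, 3 were higher and 5 lower in shKDM1A control cells (median log2 difference −0.02), where 38.2% of all genes were called, 19.7% higher and 18.4% lower. Unc93b1, the chaperone that carries nucleic acid-sensing receptors to endosomes, was higher by 0.28 (SE 0.02, adjusted p = 7.31e-08), whereas Slc15a3, an endolysosomal peptide transporter, was lower by a log2 difference of −0.56 (adjusted p = 6.87e-10). Ly86, which encodes MD-1, was lower without IL4 at −0.31 (adjusted p = 1.1e-06) and with IL4 at −0.26 (adjusted p = 1.05e-05), and so was its partner Cd180 (−0.23, adjusted p = 3.1e-05, and −0.27, adjusted p = 5.89e-06). Cd36, a scavenger receptor that assists TLR2 and TLR6, was higher by 0.32 without IL4 (adjusted p = 4.63e-09) and differed by −0.02 with it (adjusted p = 0.559), and its IL4 responses differed by −0.33 (SE 0.03, adjusted p = 8.41e-06).

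With IL4 in shGFP cells, 5 of these 12 rose and 5 fell, beside 13.1% and 13.7% of all genes. Cd36 rose by 1.73 (SE 0.02, adjusted p = 8.67e-18) and Cd14, the co-receptor that hands lipopolysaccharide to the TLR4 complex, fell by 0.93 on the log2 scale (SE 0.02, adjusted p = 3.27e-14). The Cd14 libraries read 14.60, 14.64, 14.61 and 14.63 without and 13.73, 13.68, 13.66 and 13.71 with IL4, in the same cells in which Tlr4 rose. In shKDM1A cells Cd14 fell by 0.45 (adjusted p = 2.96e-10), and the difference between the lines of 0.48 (SE 0.03) had an adjusted p of 2.83e-07. Hsp90b1, the chaperone gp96 needed to fold most Toll-like receptors, fell with IL4 in shGFP cells by 0.30 (adjusted p = 1.81e-09).

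All 5 endosomal proteases that can cleave nucleic acid-sensing receptors (Ctsb, Ctsk, Ctsl, Ctss and Lgmn) were higher in shKDM1A control cells, as were 19.7% of all genes, with a median log2 difference of 0.44 beside −0.0027 for all genes. Ctsl had 0.83 (SE 0.02, adjusted p = 1.58e-13), Ctss 0.53 (SE 0.02, adjusted p = 1.66e-12) and Ctsk 0.44 (SE 0.02, adjusted p = 7.51e-11). With IL4, 4 of the 5 were higher in shKDM1A cells (20.9% of all genes were), but the direction for Ctsb depends on the scaling: 0.29 as deposited and −0.06 (adjusted p = 0.0439) after quantile normalization, while without IL4 it was 0.27 and 0.07. IL4 lowered 3 of the 5 (13.7% of all genes) and raised 1 (13.1%) in shGFP cells. Ctsb fell by 0.40 (adjusted p = 1.93e-10), Ctsl fell by 0.13 (adjusted p = 0.000499) and Lgmn rose by 0.09 (adjusted p = 0.00713).

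Among 22 adaptors and kinases, 8 were higher and 5 lower in shKDM1A control cells (median log2 difference 0.02), and 6 were higher and 6 lower with IL4, beside called shares of 38.2% and 40.7% over all genes. Pik3ap1, an adaptor that links receptors to phosphoinositide 3-kinase, was higher by 0.49 without IL4 (adjusted p = 5.28e-09), Tirap, the bridge from TLR2 and TLR4 to MyD88, by 0.34 (adjusted p = 0.000129) and Ikbkg, the regulatory subunit of the IkB kinase, by 0.29 (adjusted p = 2.76e-05). Irak2 was higher in shKDM1A cells by 0.23 without IL4 (adjusted p = 7.05e-06) and by 0.22 with it (adjusted p = 1.12e-05). Myd88 was lower in the knockdown without IL4, with a log2 difference of −0.21 (adjusted p = 7.85e-05), and differed by −0.02 with IL4 (adjusted p = 0.731). The difference between its IL4 responses was 0.20 (SE 0.05, adjusted p = 0.0219), a call that was lost without shKDM1A IL4 replicates 1 and 3 (0.17, adjusted p = 0.103). IL4 in shGFP cells raised 1 of the 22 and lowered 4, a called share of 22.7% that lies near the 26.9% of all genes. Among the lower ones were Ikbke at −0.44 (adjusted p = 3.9e-07), Irak2 at −0.23 (adjusted p = 1.12e-05) and Ticam1, which encodes TRIF, at −0.15 (adjusted p = 0.0186). The Ticam1 call was lost without shGFP control replicate 2 or 4 (−0.13 and −0.13, adjusted p = 0.0542 and 0.0617) and without shGFP IL4 replicate 3 or 4 (−0.14 and −0.14, adjusted p = 0.0524 and 0.0534).

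Of 18 inhibitors of the pathway, 6 were higher and 3 lower in shKDM1A control cells (median log2 difference −0.01), beside 19.7% and 18.4% of all genes. Trim30a, which restrains NF-kB activation and is itself an interferon-stimulated gene, was higher by 0.93 without IL4 (SE 0.04, adjusted p = 2.73e-11) and by 1.14 with it (adjusted p = 2.31e-12). Nlrc5 was higher by 0.32 and 0.26 (adjusted p = 0.000116 and 0.000606). Il1rl1, the IL33 receptor ST2, was lower without IL4 (−0.33, adjusted p = 7.76e-08) and with it (−0.21, adjusted p = 1.45e-05). So was Inpp5d, the phosphatase SHIP1 (−0.25, adjusted p = 4.4e-08, and −0.24, adjusted p = 7.43e-08). IL4 raised 6 of the 18 in shGFP cells and lowered 3, beside 13.1% and 13.7% of all genes. Socs1 rose by 0.71 (SE 0.05, adjusted p = 3.03e-08), the mRNA-destabilising factor Zfp36 by 0.44 (adjusted p = 9.94e-09) and Il1rl1 by 0.35 (adjusted p = 6.5e-08). The Socs1 response was smaller in shKDM1A cells, with a difference of −0.33 (SE 0.07, adjusted p = 0.0149).

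Transcription factors gave the largest single change of the pathway. Irf7, which carries TLR7 and TLR9 signals to interferon genes, had values of 9.67, 9.72, 9.71 and 9.73 in shGFP control cells and 11.96, 11.93, 11.90 and 11.96 in shKDM1A control cells, a log2 difference of 2.23 (SE 0.02, adjusted p = 1.31e-18), and of 2.30 with IL4 (adjusted p = 4.51e-19). Of 14 factors, 6 were higher and 5 lower without IL4 (median log2 difference 0.03), beside 19.7% and 18.4% of all genes, and the higher ones included Fos (0.76, adjusted p = 1.67e-12) and Irf1 (0.32, adjusted p = 1.92e-06). Rel, the NF-kB subunit c-Rel, was lower in shKDM1A cells with IL4 (−0.42, SE 0.04, adjusted p = 6.93e-07). Without IL4 it differed by −0.12 (adjusted p = 0.029), a call that was lost without shGFP control replicate 1 or 3 (−0.11 and −0.11, adjusted p = 0.0826 and 0.0708) or shKDM1A control replicate 1 or 3 (−0.11 and −0.12, adjusted p = 0.0713 and 0.0576), and the IL4 responses differed by −0.29 (SE 0.06, adjusted p = 0.00853). IL4 in shGFP cells raised 6 of 14 and lowered 3, beside 13.1% and 13.7% of all genes, and the 3 largest changes were Atf3 (0.43, adjusted p = 6.35e-09), Irf5 (0.39, adjusted p = 7.87e-10) and Rel (0.38, adjusted p = 3.96e-06).

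Of 23 target genes of the pathway, 11 passed the filter on low values. In shKDM1A control cells 4 of the 11 were higher and 3 lower (median log2 difference 0.05), beside 19.7% and 18.4% of all genes. Cxcl10, an interferon-responsive chemokine, was higher by 0.54 (SE 0.05, adjusted p = 5.33e-07) and, with IL4, by 0.84 (adjusted p = 2.16e-09). Ccl2 was lower at −0.31 (adjusted p = 3.35e-06) and Ccl3 higher at 0.28 (adjusted p = 1.71e-06). In shGFP cells IL4 raised 2 of the 11, Ptgs2 (0.71, adjusted p = 1.85e-10) and Ccl2 (0.68, adjusted p = 3.67e-10), and lowered 4, among them Tnf (−0.63, adjusted p = 4.44e-09), beside 13.1% and 13.7% of all genes.

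**Figure D5:**
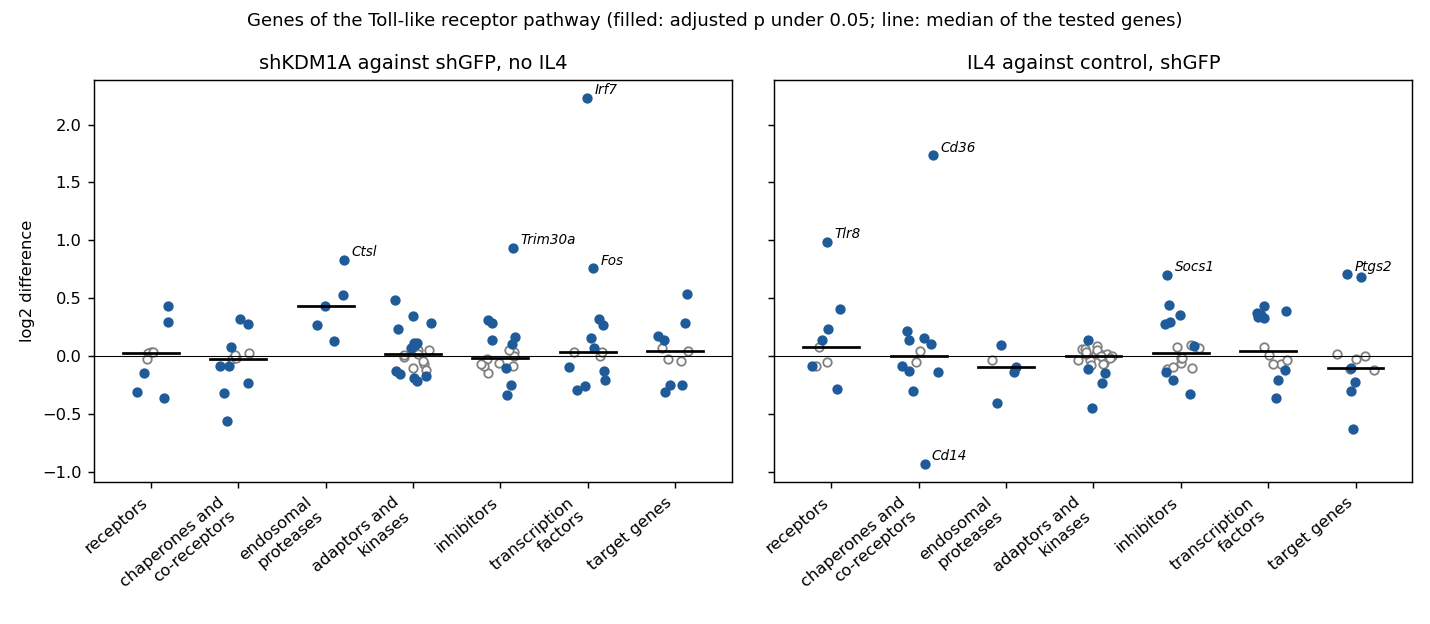
Log2 differences (y axis) of the tested genes of the receptor family and of 6 pathway lists (x axis) for the knockdown without IL4 (left) and for IL4 in shGFP cells (right), with filled points for an adjusted p under 0.05 and a line at each list's median. Irf7 lies highest on the left at 2.23, the 5 proteases all lie above 0 there, and Cd36 at 1.73, Tlr8 at 0.99 and Cd14 at −0.93 lie farthest out on the right.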

How the data were processed

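RNA was sequenced from RAW cell lines and BMDMs. Per the study's methods, the authors aligned reads to mm9 with HISAT2 and Bowtie2 and analysed them with HOMER. Per the file headers, HOMER counted tags on exons of both strands, and the submitters' processing notes also name DESeq2 (versions not given in the sources used here). The deposited RAW table holds normalised values per library on a log2 scale, moderated for low expression by a transformation that is not named. They were used as deposited, with no pseudocount and no count model. Such moderation can make the differences of low genes smaller, which was not measured here. The BMDM table (12 columns) and 9 columns of the RAW table hold the authors' own comparisons (fold changes on a log2 scale, with raw and adjusted p-values). None of these were used, and the planned BMDM comparisons could not be run.

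Genes were kept where 4 or more libraries had a value of 1 or higher, and fitted with limma 3.58.1 in R 4.3.3 (group means over all 16 libraries, lmFit and eBayes), with two-sided tests and Benjamini-Hochberg adjustment over the genes tested in each contrast. The step was tested on simulated data. An SD is over 4 libraries. The labels do not say whether replicate numbers pair the samples, and the main fit did not pair them. The gene members and lists were chosen with earlier results of these data known. Named genes were all receptor genes, Kdm1a, the up to 3 largest called changes of each list in 3 comparisons (knockdown without and with IL4, and IL4 in shGFP cells), and the 5 genes most correlated with the leading receptor of each. Tlr11, Tlr12, Unc93b1, Myd88 and further values of named genes were added after values were seen. Promoters came from RefSeq (GRCm38.p6) and were placed on mm9 by exact match. Alternatives were the filter, the groups fitted, a replicate block, each library left out, median centring, quantile normalization, the prior variance, a fold limit and, chosen after seeing the data, 2 pairs of libraries left out and GENCODE lengths. The other assays of the series were not analysed here. Python 3.11.15 and pandas 2.3.3 were used.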

Additional observations from a re-analysis of the deposited data

Results flagged for a closer look

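The IL4 responses of 3 receptor genes differed between the 2 RAW lines by the test of the difference itself (limma, shKDM1A minus shGFP): Tlr2 by 0.15, Tlr8 by −0.25 and Tlr13 by −0.22 on the log2 scale. Tlr2 was also the receptor whose libraries moved in opposite directions with IL4, without overlap in either line. Its rise in shKDM1A cells was small (0.07) and was called in 15 of 26 alternatives. The difference of the responses was called in 25 of 25 alternatives for Tlr2, 24 for Tlr13 and 11 for Tlr8.

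Single libraries stood apart from the other 3 of their group in 2 of 36 groups of 4 values (by Dixon's ratio of gap to range, which chance passes in about 1 of 20 groups). The highest Tlr8 value of shGFP control cells was 6.47 in replicate 2, and the lowest Tlr13 value of shGFP cells with IL4 was 10.40, also in replicate 2.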

How the results depend on the processing

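For the receptor genes, 45 log2 differences were recomputed 1161 times. Of these values 1076 kept their direction and side of the threshold, 48 lost the call, 18 gained it and 19 changed sign, none of them in a difference that was called. In the knockdown without IL4, requiring an absolute log2 difference over 0.26 kept Tlr3, Tlr7, Tlr2 and Tlr13. It dropped Tlr4, and 1074 of all genes stayed. The same limit left 3 called genes each for the knockdown with IL4, IL4 in shGFP cells and IL4 in shKDM1A cells, and 0 for the difference of the IL4 responses, beside 1118, 633, 596 and 140 of all 12905 genes. For that difference, without the fold limit, limma called 3 receptor genes at an adjusted p under 0.05 and 5 at an unadjusted p under 0.05, which 22.6% of all genes had. Without shKDM1A IL4 replicates 1 and 3 (chosen after seeing the data) the count at an adjusted p under 0.05 was 1, and the share of all genes called fell from 6.13% to 2.7%, while without replicates 2 and 4 it was 17.7%. In the knockdown with IL4 and in IL4 in shKDM1A cells, leaving out replicates 1 and 3 gave shares of 31.6% and 21.5%, against 40.7% and 27.1%. The part of called genes that were higher in the knockdown with IL4 was 51.3% as deposited, 56.7% after median centring and 45.0% after quantile normalization. Without division by length, 5 of 9 receptors kept their rank. RefSeq transcript lengths were not run, since the reference table gives gene spans.

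The replicate numbers gave correlations of deviations from −0.343 to 0.273 over 24 pairs, 3 of them over 0.1. Among the 4 libraries of the other group, 12 of the 24 correlated best with their own number. These values do not settle whether the numbers pair the samples. With the replicate block the numbers called were 5, 5, 6, 6 and 4, beside 37.8%, 40.4%, 26.6%, 26.8% and 5.67% of all genes, the last for the difference of the IL4 responses, where Tlr9 entered (−0.24, adjusted p = 0.0241). For IL4 in shKDM1A cells the block also called Tlr9 (0.17, adjusted p = 0.00497) and lost Tlr2 (0.07, adjusted p = 0.0521).

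Signs changed in uncalled receptor differences near 0 and in Ctsb, a called one. Quantile normalization gave −0.0009 for Tlr6 and 0.0017 for Tlr1 in the knockdown without and with IL4, 0.0103 for Tlr3 with IL4 in shKDM1A cells and 0.0179 for Tlr6 in the difference of the responses, and it turned Ctsb in the knockdown with IL4 from 0.29 to −0.0583, the only such change among 130 called differences of pathway genes. Leaving out shKDM1A IL4 replicates 2 and 4 gave 0.0165 for Tlr1 and −0.0046 for Tlr6 in the knockdown with IL4, and leaving out 1 and 3 gave 0.0321 for Tlr3 with IL4 in shKDM1A cells and 0.0016 for Tlr6 in the difference. The cause was not tested. Leaving out single libraries, the knockdown differences ranged without IL4 from −0.0447 to 0.0114 for Tlr8 and from −0.0055 to 0.0595 for Tlr9, with IL4 from −0.0324 to 0.0126 for Tlr1 and from −0.0076 to 0.0329 for Tlr6, and the others from −0.0543 to 0.0112 for Tlr3 with IL4 in shKDM1A cells and from −0.034 to 0.0065 for Tlr6 in the difference. An alternative with only the compared groups cannot differ for the difference, which uses all 4.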
